A study of Mus musculus with 2 samples.

Results

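The 10 keratins described here are the main filament proteins of simple and of basal stratified epithelium: Krt7, Krt8, Krt18, Krt19 and Krt20, which are made in ductal and other simple epithelia, and Krt5, Krt6a, Krt14, Krt15 and Krt17, which are made in basal layers or after injury. They were chosen by name, as probes whose gene name on the array was one of these symbols or its older Krt1-n or Krt2-n alias, and all were found under the current symbol. They were read by 12 probes and make up 10 of the 20852 genes measured on both arrays.

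Panc02 is a carcinoma line of mouse pancreas, and its cells were placed under the skin of C57BL/6 mice. Mice entered either a standard environment, ordinary laboratory caging, or an enriched environment, housing that offers more stimulation, at 3 weeks of age, and stayed there for 5 weeks after the injection. Every mouse of either group received Panc02 cells, so that housing is the labelled difference between the groups. Tumour RNA of 6 mice was pooled per housing and each pool was labelled with Cy3 and read on 1 one-colour array. There are therefore no replicates, precision is limited by the number of arrays, and no test between the housings is possible. The series uses 1 tumour line, the pools hide the spread between mice, and a whole tumour holds host cells beside the carcinoma cells. Below, the groups are called the standard pool and the enriched pool. The labels call the tissue a pancreatic cancer xenograft.

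Keratins form the intermediate filaments of epithelial cells and assemble only as partners of an acidic type I and a basic type II chain. Simple epithelia, pancreatic ducts among them, make Krt8 with Krt18, joined by Krt7 and Krt19, and Krt20 is best known from the gut and urothelium. Basal cells of stratified epithelia make Krt5 with Krt14, Krt15 marks quiet basal and hair follicle bulge cells, and Krt6a and Krt17 are switched on in wounded, hyperproliferative or follicular epithelium. Filaments are anchored at desmosomes through desmoplakin and at hemidesmosomes through plectin and dystonin.

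All 10 keratins were higher in the enriched pool, each by more than 2-fold, beside 5.71% of all genes measured that were at least 2-fold higher and 9.46% that were at least 2-fold lower. Simple keratins lay close together, between 2.85-fold for Krt7 and 4.41-fold for Krt8, whereas the basal and stress keratins ran from 2.64-fold for Krt15 to 21.4-fold for Krt17. Levels are given as log2 of a probe's intensity over its array's 75th percentile, and differences as the level in the enriched pool minus that in the standard pool. The median difference was 1.84 for the 5 simple keratins and 2.01 for the 5 basal and stress keratins, against 0.03 over all genes measured. These medians were 0.17 apart, and that gap has no replicate check. Among the 20852 genes, Krt17 had the 5th highest difference and Krt14 the 33rd, and each of the 10 keratins lay within the highest 2.92%.

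The starts of 4 keratin genes of chromosome 15 are shown as examples: the partners Krt8 and Krt18, the simple keratin Krt7 and the basal keratin Krt5. Their transcripts were higher in the enriched pool, as were those of all 10 keratins. Krt20, on chromosome 11, also has a window at its start, which is not shown. Each sequence is the 250 bases before the annotated start, 5′ to 3′ on the gene's own strand, from RefSeq on build GRCm38.p6. They lie at chr15:102004343-102004592 (minus strand), chr15:102027966-102028215 (plus strand), chr15:101412153-101412402 (plus strand) and chr15:101712906-101713155 (minus strand). Capitals mark matches to GGGCGG, the core of the GC box, on either strand.
Krt8: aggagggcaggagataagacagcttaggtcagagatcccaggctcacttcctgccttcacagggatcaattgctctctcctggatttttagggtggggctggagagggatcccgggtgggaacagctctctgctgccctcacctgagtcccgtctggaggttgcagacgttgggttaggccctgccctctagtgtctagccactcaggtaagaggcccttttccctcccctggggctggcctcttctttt
Krt18: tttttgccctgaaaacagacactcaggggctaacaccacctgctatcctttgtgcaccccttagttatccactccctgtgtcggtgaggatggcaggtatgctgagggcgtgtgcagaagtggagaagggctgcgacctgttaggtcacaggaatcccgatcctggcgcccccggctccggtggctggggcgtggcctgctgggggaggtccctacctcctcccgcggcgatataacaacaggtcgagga
Krt7: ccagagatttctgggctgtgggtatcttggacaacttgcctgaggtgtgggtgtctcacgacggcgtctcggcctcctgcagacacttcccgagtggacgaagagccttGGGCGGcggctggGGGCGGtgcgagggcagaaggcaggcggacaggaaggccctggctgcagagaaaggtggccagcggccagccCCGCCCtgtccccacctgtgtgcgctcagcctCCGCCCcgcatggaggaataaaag
Krt5: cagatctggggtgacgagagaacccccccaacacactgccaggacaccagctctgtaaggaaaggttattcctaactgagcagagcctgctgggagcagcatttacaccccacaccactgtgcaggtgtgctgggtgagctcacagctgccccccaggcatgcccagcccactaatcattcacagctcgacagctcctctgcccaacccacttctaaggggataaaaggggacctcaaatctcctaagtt

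The RefSeq table held 6 of the 10 genes, and Krt6a, Krt15, Krt17 and Krt19 had no entry. Searched on both strands, GGGCGG was found in 1 of the 6 windows, that of Krt7 with 4 matches, and in 32.7% of all 32851 windows. TATAAA, the core of the TATA box, was found in 1 of the 6, that of Krt20 at 29 bases before the start, and in 12.4% of all windows. TGANTCA, the element bound by AP-1, was found in 0 of the 6 and in 6.75% of all windows. No match overlapped another, and a match is a description of these letters only. The window listed for Krt14 starts 1480 bases from the gene's 5′ end, so it does not show the main start of that gene.

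Among the simple keratins, Krt8, the type II chain of simple epithelium, was read by 2 probes. On the probe at chr15:101983072-101983131 (mm7, minus strand) its intensity was 23574 in the standard pool and 151749.5 in the enriched, and on the probe at chr15:101982940-101982999 it was 31925 and 164734. The enriched pool was brighter on both probes, with differences of 2.30 and 1.98 (SD between probes 0.23). Krt18, its type I partner, had an intensity of 66568 in the standard pool and 261518 in the enriched at chr15:102018067-102018126. Its difference was 1.59 after scaling, or 3.01-fold, which is 0.55 less than that of Krt8. The scanner software's own spot error gave that gap an error of 0.25. That error was 0.204 on each probe of Krt7, Krt8, Krt18 and Krt19. On bright spots it is thus a set share of intensity rather than a measured spread, and it does not cover the spread between mice.

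Krt7, a ductal type II keratin, had an intensity of 42265 in the standard pool and 155036 in the enriched on the probe at chr15:101413898-101413957, and of 6377 and 24174 on the probe at chr15:101409444-101409503. The differences of its probes, 1.49 and 1.54, were alike (SD between probes 0.03). Krt19, the ductal type I keratin and a common marker of pancreatic carcinoma, went from an intensity of 10985 in the standard to 51485 in the enriched pool at chr11:100250117-100250176, which gave a difference of 1.84. Krt20 read 1179 and 5674 at chr11:99537501-99537560, a difference of 1.88. Each simple keratin was thus between 2.85-fold and 4.41-fold higher, and no spot was saturated.

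Among the basal and stress keratins, Krt17, a type I keratin of injured and hair follicle epithelium, differed most. Its intensity was 391 ± 39.2 in the standard pool and 10945 ± 1095 in the enriched (scanner error of 1 spot each) at chr11:100365309-100365368, a difference of 4.42. Krt14, the type I keratin of basal cells, had an intensity of 934 ± 93.5 in the standard pool and 10832 ± 1083 in the enriched, which is 8.87-fold and a difference of 3.15. Its probe spans chr11:100312408-100313013, 606 bases of genome where the other 11 probes span 60. Krt17 was higher than Krt8 in its difference by 2.28 (scanner error 0.25), and Krt14 by 1.01 (scanner error 0.25).

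The pairs read within the basal group, Krt5 with Krt14 and Krt6a with Krt17, were further apart than Krt8 and Krt18. Krt16, a type I stress keratin outside the 10, differed by 2.04, nearer to Krt6a than Krt17 was. Krt5, the type II partner of Krt14, had an intensity of 311 in the standard pool and 1641 in the enriched at chr15:101693240-101693299, a difference of 2.01 that is 1.14 below that of Krt14 (scanner error 0.29). Krt15, the other basal type I keratin, read 73.9 and 255 at chr11:100241065-100241124, a difference of 1.40 and the smallest of the 10. Krt6a, the type II stress keratin that pairs with Krt17, read 22.1 and 87.6 at chr15:101676588-101676647, a difference of 1.60 that is 2.82 below that of Krt17 (scanner error 0.35).

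Krt6a and Krt15 had the lowest signal over local background of these probes. In the standard pool the spot of Krt6a was 1.76 times its local background and 0.60 above the lowest level that counted as well above background there. With normexp background correction Krt6a differed by 0.63 and Krt15 by 0.97, so that 8 of the 10 keratins stayed at least 2-fold higher. The other 8 kept a difference of at least 1.49 under each of the 8 other processings tried. Krt17 and Krt14 stayed the highest and second highest of the 10 throughout. Only quantile normalization, normexp correction and the deposited log2 values could move the keratins read by 1 probe against each other. Of the 10, using the brightest probe per gene changed Krt7, to 1.49, and Krt8, to 1.98. The rest left all 10 values unchanged or shifted all genes alike.

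**Figure D1:**
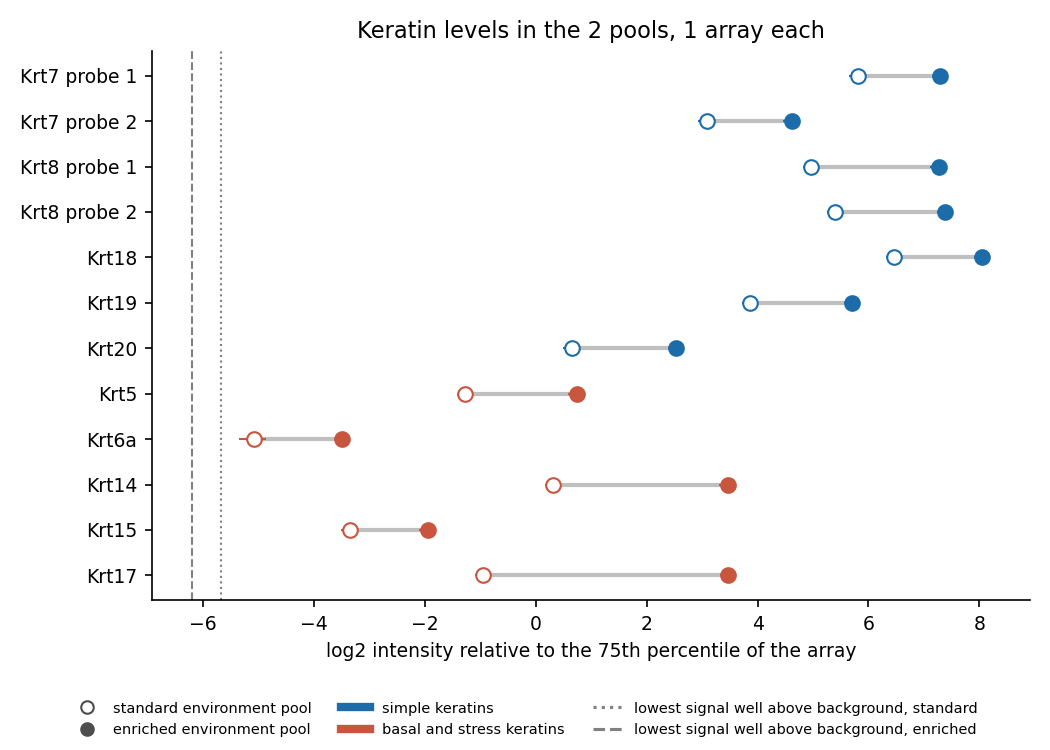
Level of each keratin probe in the standard (open) and enriched (filled) environment pool, as log2 of its intensity over the array's 75th percentile; bars, mostly within the symbols, are the scanner's error of the spot, and the dotted (standard) and dashed (enriched) lines the lowest signal well above background. Every probe is higher in the enriched pool, Krt17 by 4.42 and Krt14 by 3.15, and Krt6a in the standard pool lies nearest to background.

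**Figure D2:**
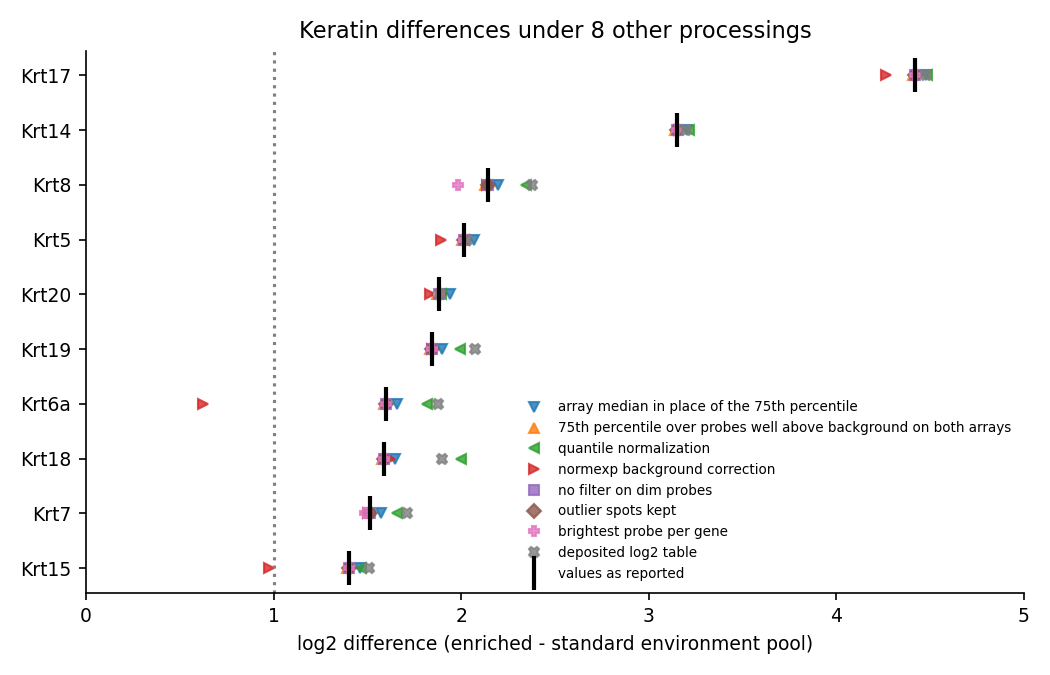
Difference of each keratin (enriched minus standard pool, log2) as reported (black bar) and under 8 other processings (symbols), with a dotted line at 2-fold. Krt17 and Krt14 keep their places, which several of the processings could not change. Only Krt6a and Krt15 pass below 2-fold, both with normexp background correction.

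Keratin genes lie in clusters on mouse chromosomes 11 and 15, and the array held 46 of them, of which 24 were measured on both arrays. Of the 14 measured keratins outside the 10, 3 were at least 2-fold higher, none was at least 2-fold lower, and the median difference was 0.47. The 3 were Krt79 at 2.13, Krt16 at 2.04 and Krt13 at 1.34. Krt16, a type I stress keratin, lies between Krt14 and Krt17 on chromosome 11, and Krt6b, beside Krt6a on chromosome 15, differed by 0.85. The 2 probes of Krt13 disagreed, with differences of 2.71 and -0.04, the latter on a spot at a level of -4.87 in the standard pool.

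Neighbours within a cluster differed in their values. Krt9, between Krt19 and Krt14, differed by -0.33, and Krt23, next to Krt20, by 0.25. The terminal differentiation keratins Krt1 and Krt2 were not well above background on either array, and Krt10 differed by 0.15, with 0.55 and -0.25 on its 2 probes. Of 17 hair and inner root sheath keratins on the array, 4 were measured on both, with differences from -0.88 for Krt27 to 0.22 for Krt75. In this list 7 were not well above background on either array, 4 were so on the enriched array only and 1 on the standard array only. Krt36 was split between its probes. Keratins share long stretches of sequence, and the probe sequences were not used here, so cross-hybridisation among Krt14, Krt16 and Krt17, or between Krt6a and Krt6b, was not tested.

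**Figure D3:**
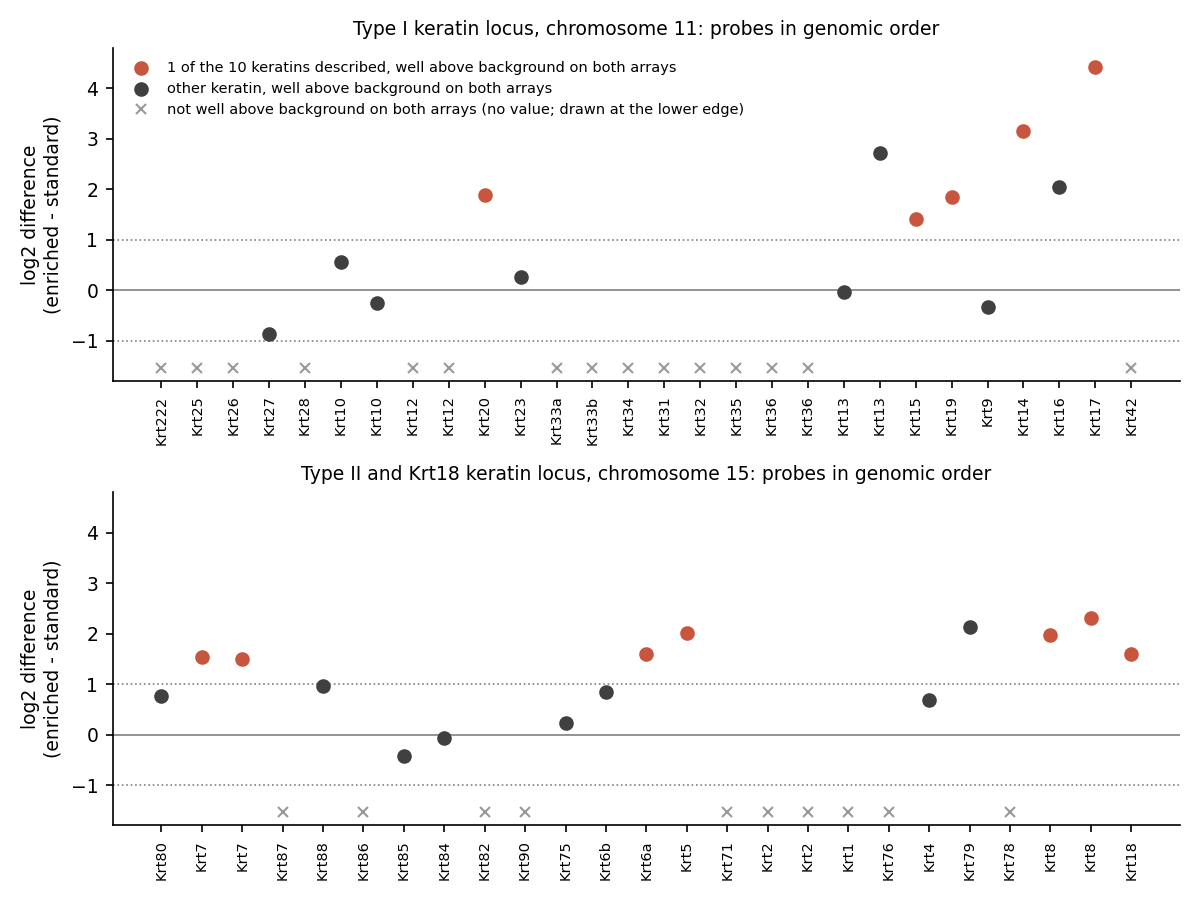
Difference (enriched minus standard pool, log2) of each keratin probe in genomic order on chromosomes 11 and 15; red points are the 10 keratins described, dark points other keratins, crosses probes without a value, and dotted lines 2-fold. The red points all lie above 2-fold, with Krt17 and Krt14 highest. Probes beside red points vary: Krt9 lies at -0.33 and Krt23 at 0.25, while Krt16, between Krt14 and Krt17, lies at 2.04.

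Genes that anchor keratin filaments were less uniformly higher. Of 14 measured desmosome and plakin genes, 5 passed 2-fold upward and none downward, and the median was 0.78, or 0.02 without a filter on dim probes. Dsp, which encodes desmoplakin, the protein that ties keratin to the desmosome, differed by 1.88 over 3 probes. The plakophilins Pkp1 and Pkp2 differed by 1.46 and 1.45, epiplakin, Eppk1, by 1.15 and envoplakin, Evpl, by 1.07. With normexp correction Eppk1 differed by 0.39. Plakoglobin, Jup, differed by -0.36 and Dsg1b by -0.91, while Dsg3 and Dsc2, desmosomal cadherins, were well above background on the standard array only, there at least 2.09-fold and 1.83-fold brighter.

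In the hemidesmosome list 3 of 8 measured genes were at least 2-fold higher, among them the basement membrane laminin chains Lamb3 at 2.36 and Lama3 at 1.31. The 2 probes of Lama3 differed, with 0.19 and 2.44, and Lama3 differed by 0.93 with normexp correction. Of the filament anchors, Plec differed by 0.02 (from -0.33 to 0.40 over 3 probes) and Dst by -0.36 (from -1.21 on its brightest probe to 0.96 over 7 probes). The integrin genes Itga6 and Itgb4 differed by 0.45 and 0.22. Itgb4 turned to -0.09 with the brightest probe alone.

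Of the other intermediate filament genes none passed 2-fold upward. Des, the desmin of muscle, had a level of 3.81 in the standard pool and -2.99 in the enriched, and Synm, its partner synemin, differed by -5.68. Vim, the vimentin of mesenchymal cells, differed by 0.34 (-0.04 and 0.72 on its 2 probes), and the nuclear lamin genes Lmna, Lmnb1 and Lmnb2 by 0.08, 0.97 and 0.80. Lmnb1 passed 2-fold, at 1.03, under 1 other processing. In the list of 9 measured genes, 4 were at least 2-fold lower (2 to 5 over the other processings), the other 2 being Nefh at -1.12 and Nes at -1.002.

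Among epithelial transcription regulators, 6 of 18 measured genes passed 2-fold upward and 1 downward, and the median was 0.60. The splicing regulators Esrp1 and Esrp2 differed by 2.08 and 1.55, Klf5, a factor of proliferating epithelium, by 1.81 and Elf3 by 1.42. Ovol1 at 1.11 and Foxa2 at 1.08 completed the 6, and Ovol1 differed by 0.22 with normexp correction. Trp63, which maintains basal cells and drives Krt5 and Krt14, was at -1.66 in the standard pool and -2.29 in the enriched, a difference of -0.63 with all 3 probes below 0. Sox9, a ductal factor, differed by -0.54, and Grhl2 by -2.14 on 1 of its 3 probes.

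Markers of several cell types were read beside the keratins. In bulk tumour RNA a different number of cells of a type and a different amount of RNA per cell cannot be told apart. Of 12 glandular epithelium markers 11 were measured, 8 past 2-fold upward and 1 downward (none downward with normexp correction). Their median of 1.85 lay 0.01 above that of the simple keratins, but 0.24 below it with normexp correction, 0.14 with quantile normalization and 0.13 without a filter on dim probes. Examples were Muc4 at 2.43, Cdh1 at 2.37 and Epcam at 2.07. Set against the same median, Krt17 was 2.57 and Krt14 1.29 above it, and Krt15 was 0.45 below. The summed signal of the glandular epithelium markers was 0.0191% of all probe signal in the standard pool and 0.0743% in the enriched.

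All 14 skeletal muscle markers were measured and all were lower in the enriched pool. Their median difference was -7.91, and their part of all probe signal went from 4.37% in the standard pool to 0.101% in the enriched. The part of this difference in the keratin values was not tested. Among fibroblast markers 4 of 9 passed 2-fold upward and 3 downward (1 to 3 over the other processings) around a median of 0.39. Among blood markers 3 of 7 were at least 2-fold lower, the red cell genes Slc4a1 at -7.40, Hba-a1 at -5.72 and Alas2 at -5.45. The white cell genes Itgam, Ptprc, Adgre1 and Cd3e differed by 0.55, 0.48, 0.34 and -0.002.

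The tumours lay under the skin, and skin markers were read beside the basal keratins. Of 15 markers of differentiated epidermis, 5 were measured on both arrays, with a median of 0.15, and 6 were not well above background on either, among them Krt1, Krt2, Flg and Dsg1a. The small proline-rich gene Sprr1a was at 1.33 the single one of the 5 past 2-fold, and differed by 0.81 with normexp correction. Casp14 and Sprr1b were well above background on the standard array only, there at least 2.02-fold and 1.56-fold brighter. Ivl and Cdsn were so on the enriched array only, where Cdsn was at least 1.84-fold brighter. The summed signal of the 15 epidermis markers was 0.00114% of all probe signal in the standard pool and 0.00167% in the enriched. Of 15 hair follicle markers 7 were not well above background on either array and 4 were measured on both. Another 3, Krt33a, Krt35 and Krt86, were well above background on the enriched array only, and Krt31 on the standard array only. Foxn1, a regulator of hair differentiation, differed by 2.86 and Lgr5, a marker of follicle stem cells that is also found in gut and stomach, by 2.51 (0.99 without a filter on dim probes), while Tchh and Krt85 differed by -0.80 and -0.43. The summed signal of the 15 hair follicle markers, dim probes included, was 0.00039% in the standard pool and 0.00125% in the enriched. That of the hair and inner root sheath keratins was 0.000352% in both pools. The part of follicle cells in the Krt14 and Krt17 values was not tested.

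Mesothelial cells also make simple keratins. Of 8 mesothelium markers 4, including Wt1 and Upk3b, were not well above background on either array. The others were Msln at 2.43, which carcinoma cells also make, Rspo1 at -0.18, Upk1b at -1.62 and Gpm6a at -1.78 (-0.78 with normexp correction).

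**Figure D4:**
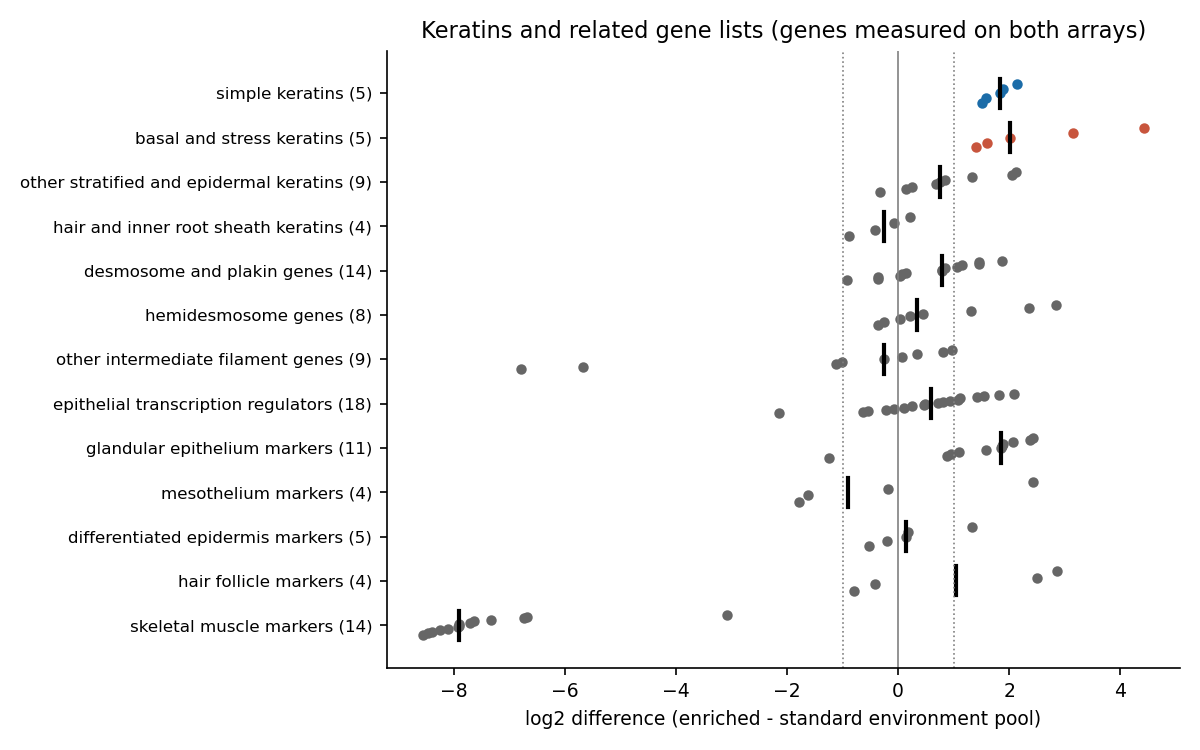
Difference (enriched minus standard pool, log2) of every gene measured on both arrays in the keratin groups and related lists; each point is a gene, the black bar is the list's median, dotted lines mark 2-fold, and the number measured is in brackets. Simple keratins lie around 1.84 beside the glandular epithelium markers at 1.85, basal and stress keratins spread up to 4.42, and skeletal muscle markers lie around -7.91.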

How the data were processed

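The deposited scanner files hold a linear intensity per spot that the authors obtained, per the submitters' processing notes, in Agilent Feature Extraction 10.7.1.1, on array design positions of build mm7, per the file headers. The software subtracted background and a spatial trend, which alters dim spots such as that of Krt6a most. Both arrays were on 1 slide. A deposited table of log2 values served as an alternative only. Its medians were 8.54 and 8.56, and r with log2 of the intensity of the same array was 1.00, so scale and direction are known. Its steps of centring and scaling are not known. Both columns had a highest value of 19.2, and their sorted values had a median gap of 0.015. Their distributions were thus nearly the same, as after quantile normalization, so these 2 alternatives are not separate checks.

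From these, log2 of the processed intensity minus the array's 75th percentile (753 in the standard, 984 in the enriched pool) was computed. The 1639 control spots and 66 and 70 outlier spots were left out. Spots of a probe, then probes of a gene well above background on both arrays, were averaged, giving 30298 probes and 20852 genes. Of 43379 spots, 77.2% and 77.4% were well above background, and none was saturated. Probes were named through RefSeq accessions (GRCm38.p6), 22936 of 41161, and otherwise by the file. With 1 array per group no p was computed, and genes were counted at 2-fold. The 10 keratins, the lists and the alternatives were chosen with earlier results of these data known. In each list up to 6 genes with the largest differences were to be named; others, such as Trp63, Vim, Plec, Foxa2 and Rspo1, and Krt9, Krt23, Krt1 and Krt2, were named after their values were seen. Some genes counted in the lists are not reported here by name. Exon and UTR annotation of probe positions on mm7 was not used here. Tools were Python 3.11.15, pandas 2.3.3, numpy 2.4.6 and limma 3.58.1 in R 4.3.3.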

Additional observations from a re-analysis of the deposited data

How the results depend on the processing

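Of 8 other processings, all kept the 10 keratins higher in the enriched pool. The medians ranged from 1.83 to 1.997 for the simple and from 1.89 to 2.07 for the basal and stress keratins, and the gap between them from 0.02 to 0.17. That gap changed only with quantile normalization, normexp correction and the deposited values, to 0.02, 0.06 and 0.13. The others kept it at 0.17, since they left every keratin read by 1 probe unchanged or shifted all genes alike. Between 8 and 10 keratins passed 2-fold upward and 0 downward, and Krt6a ranged from 0.63 to 1.88, the lowest with normexp background correction. Over all genes, normexp correction with an offset of 50 gave 669 genes at least 2-fold higher against 1190, and shifted the median of all genes by -0.10. Without a filter on dim probes 3796 of 28784 genes were at least 2-fold lower against 1972 of 20852. The medians of the hair keratin, other intermediate filament, differentiated epidermis, hair follicle and blood lists changed sign under at least 1 processing, and those of the other lists under none. Low signal over background limits Krt6a and Krt15. No paired analysis was possible because each group has 1 array of pooled RNA and the labels give no replicate numbers.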

Other observations

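The probes of a gene bear on how far the keratin differences can be read. Krt7 and Krt8, the members with 2 probes, had an SD between probes of 0.03 and 0.23, against a median of 0.17 over the 6608 genes with several probes, of which 95% lay below 0.74. The other 8 keratins rest on 1 spot per array. Where a probe was spotted repeatedly, the median SD among its spots was 0.05 on the standard array and 0.06 on the enriched. These values hold technical error only.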
